A study of Arabidopsis thaliana with 47 samples.

Results

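Salicylate-type defence genes were followed in Arabidopsis thaliana seedlings whose plastid development had or had not been blocked with lincomycin. The set held 10 genes, out of 20399 probe sets to which the authors' deposited table gives 1 locus. They were ICS1 (AT1G74710), EDS5 (AT4G39030), NIMIN1 (AT1G02450), PR1 (AT2G14610), PR2 (AT3G57260), PR5 (AT1G75040), AT5G10760, PNP-A (AT2G18660), WAK1 (AT1G21250) and SAG13 (AT2G29350). All 10 were found on the array, each with a probe set for that locus alone. The genes had been chosen for their levels on these same arrays, so their levels and differences are a description and carry no test.

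Salicylate is a defence hormone whose main route of synthesis begins in the plastid, the compartment that lincomycin affects. ICS1 makes isochorismate there, EDS5 carries it to the cytosol, and salicylate is sensed by NPR proteins, which act with TGA factors to switch on genes for secreted and wall-bound defence proteins. EDS1 and its partners and the signal N-hydroxypipecolate amplify this route, and several WRKY factors tune it.

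Each sample was a pool of whole Col-0 seedlings, labelled 7 days old and raised on 2% sucrose for 6 days in dim blue plus red light of 0.5 µmol m-2 s-1. The medium held either no lincomycin or 0.5 mM of it, an antibiotic that stops protein synthesis in plastids. Samples were taken before the light was raised to 60 µmol m-2 s-1 (0 h) and 0.5, 1, 4 and 24 h afterwards. Each of 47 samples went on 1 Affymetrix ATH1 array, with 8 arrays per treatment at 0 h and 4 at every later time, except 3 at 1 h with lincomycin.

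The 0 h arrays were kept apart as replicates 1 to 4 and replicates 5 to 8. The 0.5 and 1 h groups were compared with replicates 1 to 4 (the early series), and the 4 and 24 h groups with replicates 5 to 8 (the late series). The spike-in control Dap, added during labelling, read 3.01 to 5.02 on the 12 early arrays without lincomycin and 8.99 to 9.45 on the 11 early arrays with it. In the early series the difference in Dap and lincomycin therefore cannot be told apart. The late arrays of both treatments read 8.08 to 9.01, except replicate 4 at 24 h without lincomycin, which read 4.52. That array stood apart from all others, with a median Spearman correlation of 0.618 to them against 0.915 to 0.949 for the rest, and values at 24 h that it moved are given with and without it. The green-tissue check held in both 0 h sets: all 9 photosynthesis genes were lower with lincomycin, with a median log2 difference of -2.12 in replicates 1 to 4 and -2.15 in replicates 5 to 8.

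Levels are given on the log2(signal + 1) scale, on which a difference of 1 is a doubling for bright signals. A signal at or below the first quartile of its own array was taken as dim. Among the 12 groups formed by treatment, time and 0 h set, the 7 genes PR1, PR2, PR5, AT5G10760, PNP-A, WAK1 and SAG13 had means of 8.22 to 10.84 in the 3 early groups with lincomycin. In the 3 early groups without lincomycin the same genes had means of 3.02 to 7.22. At 0 h with lincomycin in replicates 5 to 8, a group with the same label as replicates 1 to 4, the means were 5.60 to 7.32. Of their 28 values per group, 24 lay above the array's median signal at 0 h in replicates 1 to 4 with lincomycin and 2 did so in replicates 5 to 8. Seedlings were extracted whole, so fewer cells of a type and less RNA per cell cannot be told apart in any of these values.

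**Figure D1:**
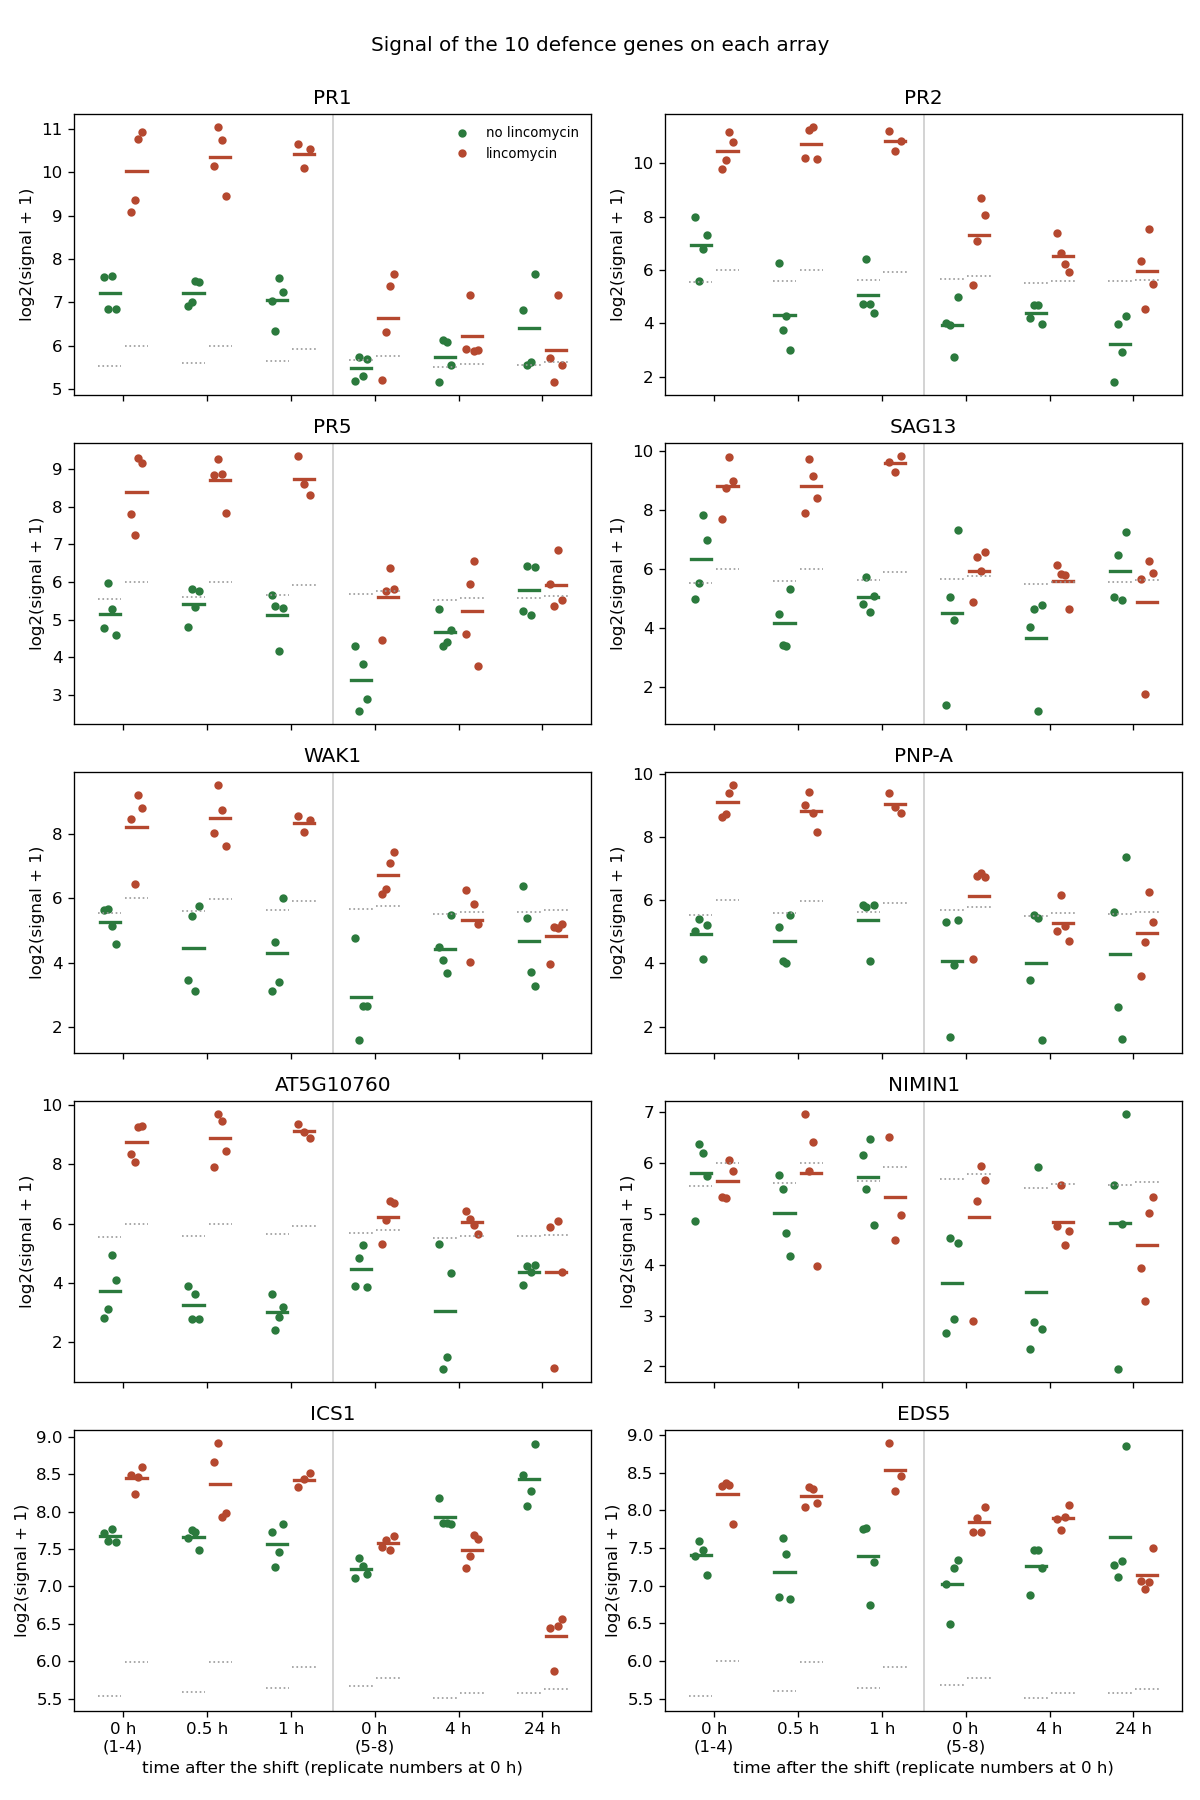
Each point is 1 array, the short bar is the group mean, and the dotted line is the median of the arrays' first quartiles; the y axis is log2(signal + 1), and a grey line divides the early from the late series. PR1, PR2, PR5, SAG13, WAK1, PNP-A and AT5G10760 sit high on the lincomycin arrays left of the line, whereas ICS1 at 24 h is at 8.43 without and 6.34 with lincomycin.

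ICS1, the isochorismate synthase that starts most pathogen-induced salicylate synthesis, lay above the first quartile on all 47 arrays. At 0 h it read 7.72, 7.60, 7.77 and 7.59 without lincomycin in replicates 1 to 4, and 8.49, 8.24, 8.46 and 8.59 with it. In replicates 5 to 8 it read 7.11, 7.38, 7.27 and 7.17 without lincomycin, and 7.53, 7.62, 7.49 and 7.68 with it. The treatments did not overlap in either set, and both treatments stood lower in replicates 5 to 8. The lincomycin difference was 0.78 ± 0.17 (SE of the fit) in replicates 1 to 4 and 0.35 ± 0.17 in replicates 5 to 8.

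Within the early series ICS1 stayed level in light, at 7.66 ± 0.12 and 7.57 ± 0.26 (SD, n = 4) without lincomycin at 0.5 and 1 h. With lincomycin it stood at 8.37 ± 0.50 (SD, n = 4) and 8.42 ± 0.09 (SD, n = 3). In the late series the treatments parted. At 4 h ICS1 read 8.18, 7.85, 7.85 and 7.83 without lincomycin and 7.24, 7.41, 7.69 and 7.63 with it. By 24 h it read 8.49, 8.07, 8.27 and 8.90 without lincomycin and 6.45, 5.87, 6.47 and 6.57 with it, a gap wider than the spread of either group. From 0 to 24 h ICS1 moved by 1.2 ± 0.17 (SE) without lincomycin and by -1.24 ± 0.17 with it, so the light responses differed by -2.44 ± 0.25. Leaving out the array that stood apart gave 1.05 ± 0.17 without lincomycin and -2.29 ± 0.24 for the difference between responses. The lincomycin difference at 24 h was -2.09 ± 0.17, or -1.94 ± 0.17 without that array, and the authors' deposited table lists a log ratio of -2.35.

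EDS5, the transporter that moves isochorismate out of the plastid, also lay above the first quartile on every array. At 0 h in replicates 1 to 4 it read 7.40, 7.60, 7.48 and 7.14 without lincomycin, and 8.33, 8.37, 8.34 and 7.82 with it. In replicates 5 to 8 the values were 7.02, 6.49, 7.23 and 7.34 without lincomycin, and 7.72, 7.9, 7.72 and 8.05 with it. The treatments did not overlap in either set. Its lincomycin difference was 0.81 ± 0.26 (SE) in the former and 0.83 ± 0.26 in the latter, and the authors' deposited table lists 0.93 at 0 h. The 0 h difference of EDS5 was of like size in both sets.

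At 4 h EDS5 read 6.88, 7.47, 7.47 and 7.23 without lincomycin, and 7.89, 7.74, 7.91 and 8.07 with it, again without overlap. At 24 h it read 7.27, 7.12, 7.33 and 8.86 without lincomycin, and 7.06, 6.96, 7.05 and 7.50 with it. The groups overlapped, and the value of 8.86 came from the array that stood apart. The lincomycin difference at 24 h was -0.50 ± 0.26 (SE) with that array and -0.10 ± 0.22 without it. With lincomycin EDS5 moved by -0.70 ± 0.26 from 0 to 24 h, and these groups did not overlap.

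NIMIN1, a small protein that binds NPR1 and holds back PR gene expression, did not exceed the median signal of any array. Its group means ran from 3.47 ± 1.65 (SD, n = 4) at 4 h without lincomycin to 5.79 ± 1.30 (SD, n = 4) at 0.5 h with it. In the early series without lincomycin the gene was dim on 1 of 4 arrays at 0 h and at 1 h. At 0.5 h it was dim on 2 of 4 in each treatment. With lincomycin it was dim on 3 of 4 in both 0 h sets, and on 2 of 3 at 1 h. In the late series without lincomycin it was dim on all 4 arrays at 0 h. There it was dim on 3 of 4 at 4 h and at 24 h, and with lincomycin on all 4 at both times. The treatments overlapped in every one of the 6 lincomycin comparisons, where the differences ran from -0.42 to 1.37 beside a pooled SD of 1.15 between arrays. The value of -0.42, at 24 h, was 0.29 ± 0.81 (SE) without the array that stood apart.

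PR1, a small secreted protein that is the usual marker of salicylate signalling in plants, had the smallest pooled SD (0.70) of the 7 genes. At 0 h in replicates 1 to 4 it read 7.58, 6.84, 7.60 and 6.85 without lincomycin, and 9.08, 9.35, 10.77 and 10.92 with it. At 0.5 h the values were 6.92, 7.00, 7.50 and 7.47 without lincomycin, and 10.14, 11.04, 10.74 and 9.46 with it. At 1 h they were 7.04, 6.34, 7.57 and 7.24 without lincomycin, and 10.66, 10.09 and 10.54 with it. The lowest lincomycin array lay above the highest array without it at all 3 points. The differences were 2.81 ± 0.49, 3.13 ± 0.49 and 3.38 ± 0.52 (SE), or 7.02-fold, 8.73-fold and 10.4-fold.

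In the late series PR1 was low in both treatments. At 0 h in replicates 5 to 8 it read 5.20, 5.74, 5.31 and 5.70 without lincomycin, and 5.21, 6.31, 7.39 and 7.66 with it. At 4 h it read 5.17, 6.13, 6.10 and 5.55 without lincomycin, and 5.92, 7.17, 5.89 and 5.91 with it. At 24 h it read 6.82, 5.55, 5.63 and 7.66 without lincomycin, and 5.73, 5.16, 7.17 and 5.56 with it. The treatments overlapped at each of these points, with differences of 1.16 ± 0.49, 0.48 ± 0.49 and -0.51 ± 0.49 (SE). The last was -0.09 ± 0.50 without the array that stood apart, which read 7.66. By group mean, the 3 early lincomycin groups (10.03 to 10.43) stood highest and overlapped one another, and the 3 early groups without lincomycin (7.05 to 7.22) came next. The 6 late groups (5.49 to 6.64) were lowest. Some of their arrays reached the early groups without lincomycin: 7.39 and 7.66 at 0 h and 7.17 at 4 h with lincomycin, and 6.82, 7.66 and 7.17 at 24 h.

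PR2, a secreted beta-glucanase listed in the annotation as BGL2, had the widest difference of the 3 PR genes in each of the 6 lincomycin comparisons. At 0 h in replicates 1 to 4 it read 7.97, 5.60, 6.80 and 7.32 without lincomycin, and 9.78, 10.12, 11.16 and 10.78 with it. At 0.5 h it read 6.26, 3.74, 4.27 and 3.01 without lincomycin, and 10.19, 11.26, 11.35 and 10.15 with it. At 1 h it read 4.74, 6.40, 4.71 and 4.39 without lincomycin, and 11.22, 10.44 and 10.84 with it. The treatments did not overlap at any early point, and the difference at 0 h was 3.54 ± 0.67 (SE). At 0.5 and 1 h, 3 of 4 arrays without lincomycin were dim; with those set to their first quartile the difference was at least 31.5-fold and 30.9-fold.

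In the late series all 12 PR2 values without lincomycin were dim, between 1.79 and 5.00. With lincomycin the gene read 5.43, 7.08, 8.71 and 8.06 at 0 h in replicates 5 to 8, and 7.40, 6.62, 6.21 and 5.91 at 4 h. At 24 h it read 6.35, 4.55, 7.55 and 5.46. Every lincomycin array therefore lay above every late array without it at 0 and 4 h, by at least 3.18-fold and 2.04-fold between group means. At 24 h the groups did not overlap either, but 2 of the 4 lincomycin arrays were dim and no fold is given.

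PR5, a thaumatin-like protein, read 7.81, 7.25, 9.30 and 9.15 at 0 h with lincomycin in replicates 1 to 4, against 4.79, 5.96, 5.28 and 4.60 without it. Replicates 5 to 8 read 4.45, 5.75, 6.38 and 5.81 with lincomycin, against 4.29, 2.57, 3.81 and 2.89 without it. The treatments did not overlap in either set, but the late lincomycin arrays lay below all the early ones. The early difference was at least 6.34-fold, since 3 of the 4 arrays without lincomycin were dim. At 24 h without lincomycin PR5 read 5.24, 6.42, 5.11 and 6.39, all above the late 0 h arrays, although 3 of the 4 were dim.

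AT5G10760, an aspartyl protease annotated as apoplastic and EDS1-dependent, was dim on all 24 arrays without lincomycin. At 0 h with lincomycin it read 8.34, 8.09, 9.26 and 9.29 in replicates 1 to 4, and 5.30, 6.12, 6.78 and 6.69 in replicates 5 to 8. It then read 7.92, 9.71, 9.46 and 8.45 at 0.5 h, and 9.36, 9.11 and 8.90 at 1 h. The early difference was at least 8.97-fold at 0 h, at least 9.62-fold at 0.5 h and at least 11.1-fold at 1 h. In the late series it was at least 1.48-fold at 0 h and at least 1.46-fold at 4 h, and the groups at 24 h overlapped.

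PNP-A, a small secreted peptide of the natriuretic type, read 8.63, 8.72, 9.38 and 9.65 at 0 h with lincomycin in replicates 1 to 4. In replicates 5 to 8 it read 4.15, 6.78, 6.86 and 6.72. The array of 4.15 was far below its group, and the other arrays of that group still lay below all early ones. Without lincomycin all 8 arrays at 0 h were dim, which put the early difference at least 11.4-fold.

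WAK1, a receptor kinase bound to cell wall pectin, read 8.45, 6.44, 9.20 and 8.80 at 0 h with lincomycin in replicates 1 to 4 and 6.13, 6.28, 7.09 and 7.45 in replicates 5 to 8. These groups overlapped, and WAK1 was the 1 of the 7 genes for which they did so. Without lincomycin it read 5.63, 5.66, 5.15 and 4.57, then 4.77, 1.60, 2.66 and 2.67. The lincomycin arrays lay above these in both sets, by at least 5.88-fold in replicates 1 to 4 and at least 2.12-fold in replicates 5 to 8.

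SAG13, a dehydrogenase-type protein used as a marker of ageing leaves and of cell death, read 7.71, 8.74, 9.82 and 8.99 at 0 h with lincomycin in replicates 1 to 4. Without lincomycin it read 4.98, 5.53, 7.84 and 7.00, which overlapped by 1 array. At 0.5 and 1 h the treatments did not overlap, and the difference was at least 9.14-fold and at least 14.7-fold. Its pooled SD of 1.31 was the widest of the 10 genes.

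Over all 10 genes, the median lincomycin difference was 2.89 at 0 h in replicates 1 to 4, 3.65 at 0.5 h and 3.64 at 1 h, beside medians of 0.23, 0.22 and 0.14 over all 22746 probe sets. It was 1.60 at 0 h in replicates 5 to 8, 1.08 at 4 h and -0.21 at 24 h, beside 0.07, 0.06 and -0.07. Without the array that stood apart the median at 24 h was -0.01, with PNP-A at 1.68 in place of 0.66, SAG13 at -0.61 in place of -1.05 and WAK1 at -0.33 in place of 0.14. Arrays did not overlap in the direction of higher signal with lincomycin for 8 genes at 0 h in replicates 1 to 4, where 19.6% of all probe sets did the same. That count was 9 at 0.5 h (18.1% of all probe sets), 9 at 1 h (19.6%) and 6 at 0 h in replicates 5 to 8 (17.9%). At 4 h it was 3 (16%), with ICS1 alone lower (11.1%), and at 24 h it was PR2 alone (14.8%), again with ICS1 lower (9.31%). The genes were chosen on these contrasts, so nothing is read from the shares. For the 7 genes the authors' deposited 0 h lincomycin log ratios were smaller than the differences in replicates 5 to 8 (1.16 to 3.81). They list 0.95 for PR1, 1.42 for PR2, 0.16 for PR5 and 0.04 for SAG13. For WAK1 the value is 0.88, for PNP-A 0.73 and for AT5G10760 0.02. Which 0 h arrays and which signal method gave the deposited ratios is not stated, so the 2 sets of sizes may not be like measures.

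**Figure D2:**
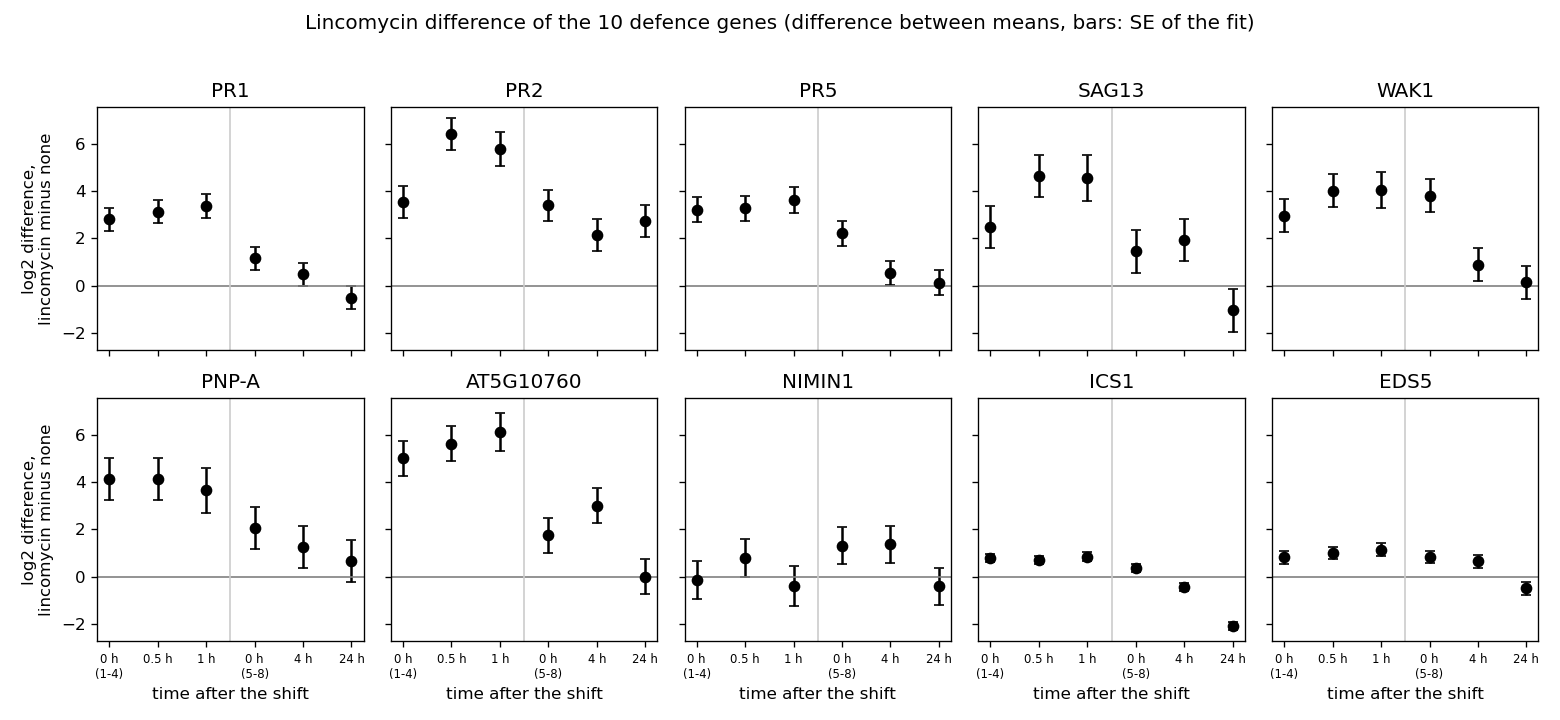
Points are log2 differences, lincomycin minus none, at each time on the x axis, with bars of 1 SE from the fit; the grey line divides the early from the late series. PR1, PR2 and PR5 stand at 2.81 to 6.42 left of the line and nearer 0 at 4 and 24 h, and ICS1 reaches -2.09 at 24 h.

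The 2 sets of 0 h arrays carry the same labels, so their differences were described separately. Replicates 1 to 4 stood above replicates 5 to 8 for all 10 genes with lincomycin, by a median of 2.65, beside 0.08 over all probe sets. PR1 differed by 3.39 ± 0.49, PR2 by 3.14 ± 0.67 and PNP-A by 2.97 ± 0.89 (SE). For 7 genes these arrays did not overlap (15.6% of all probe sets, in the same direction). Without lincomycin the median was 1.75, beside -0.01, with 9 genes higher and 5 not overlapping (16.9%). PR2 differed there by 3.0 ± 0.67 and PR1 by 1.73 ± 0.49. In replicates 5 to 8 PR2 was dim on 4 of 4 of these arrays and PR1 on 2 of 4, so both sizes rest in part on dim signals. AT5G10760 was the exception, at -0.73 ± 0.74, and it was dim on all 8 arrays.

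Light itself moved the genes little within the early series with lincomycin. With lincomycin the 10 differences from 0 h lay between -0.26 and 0.32 at 0.5 h and between -0.32 and 0.78 at 1 h, and no gene had arrays that did not overlap; of all probe sets, 1.89% were clear of 0 h upwards and 1.64% downwards at 0.5 h, and 3.79% and 4.65% at 1 h. Without lincomycin 8 of 10 genes stood lower than at 0 h at 0.5 h (median -0.36) and 9 of 10 at 1 h (median -0.13). The medians over all probe sets were 0.02 and 0.03. PR2 moved by -2.60 ± 0.67 (SE) at 0.5 h and by -1.86 ± 0.67 at 1 h, although its arrays overlapped with those at 0 h. SAG13 had means of 6.34 at 0 h, 4.16 at 0.5 h and 5.04 at 1 h, also with overlap. PR2 was dim on 3 of 4 arrays at both times, and SAG13 on 4 of 4 at 0.5 h and 3 of 4 at 1 h. The sizes of these falls therefore rest on dim signals. In the late series with lincomycin, 9 of 10 genes stood lower at 24 h than at 0 h, with a median of -1.11 beside -0.07 over all probe sets. WAK1 moved by -1.90 ± 0.71, ICS1 by -1.24 ± 0.17 and EDS5 by -0.70 ± 0.26, and these 3 did not overlap (17.7%). WAK1 was dim on 4 of 4 arrays at 24 h, so the size of its fall rests on dim signals. Without lincomycin 8 of 10 genes stood higher at 24 h, with a median of 1.06 beside 0.16, where ICS1 and PR5 did not overlap (14.4%). Without the array that stood apart this was 7 of 10, with a median of 0.49. The light response at 24 h was lower with lincomycin than without it for 10 of 10 genes, with a median difference of -1.74, or -1.46 without that array.

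The technical controls differed between the sets of arrays. The mean of the 10 genes was highest on the early lincomycin arrays (8.01 to 9.30), where Dap was highest too. It was 5.10 to 6.32 on the early arrays without lincomycin, where Dap read 3.01 to 5.02, and 4.38 to 7.04 on the late arrays of both treatments, where Dap read 8.08 to 9.01. The actin control, whose 3' minus 5' signal rises as RNA or labelling shortens, read 2.39 to 3.69 on the early lincomycin arrays, 2.68 to 3.12 on the early arrays without lincomycin, and 4.02 to 5.43 on the late arrays. These late ranges leave out the array that stood apart, with a mean of 6.55, Dap at 4.52 and actin at 3.21. Its GAPDH control, read in the same way as actin, was at 6.31, against 0.22 to 1.58 on the other arrays. Its first quartile was 7.36, against 5.38 to 6.22, and 60% of the 10 genes were dim on it. Between the early treatments the actin ranges overlapped and the Dap ranges did not. EXPA7 was the 1 of 8 root markers called at 0 h, in replicates 5 to 8. Root markers had mean levels of 7.11 to 8.03 at 0 h with lincomycin in replicates 1 to 4 and 7.18 to 7.28 in replicates 5 to 8. The part of these factors in the defence gene levels was not tested.

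**Figure D3:**
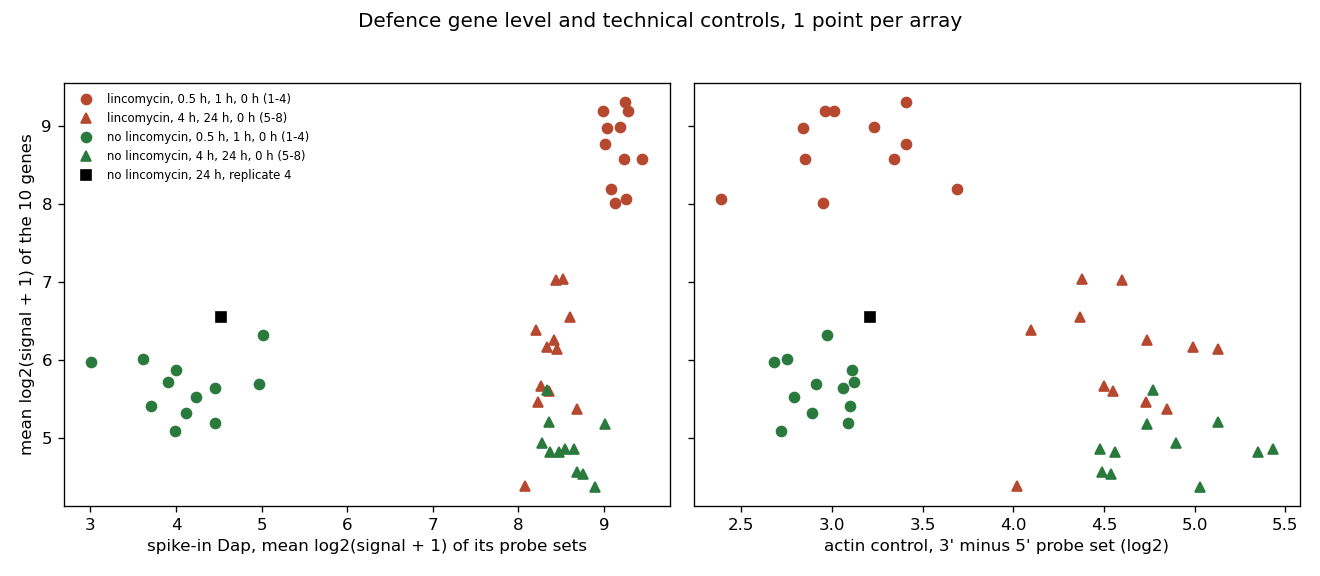
Each point is 1 array; the y axis is the mean log2(signal + 1) of the 10 genes, and the x axes are the spike-in Dap signal and the actin 3' minus 5' difference, both in log2 units. Early lincomycin arrays (red circles) form the upper group in both panels, and the late arrays lie further right along the actin axis than the early ones, except the array that stood apart, at 3.21.

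In 5 of the 12 groups 1 array was highest or lowest for 8 of the 10 members. In the 0.5 h group with lincomycin, replicate 2 was highest for 8 of 10 genes, and at 1 h replicate 1 was highest for 8 of 10. At 0 h with lincomycin, replicate 5 was lowest for 8 of 10, and at 24 h replicate 2 was lowest for 8 of 10. The array that stood apart was highest of its group for 8 of 10, and its first quartile, at 7.36, was higher than on any other array. In the other 7 groups no array was highest or lowest for more than 5 of 10. Pooled SDs between arrays of a group were 0.24 for ICS1, 0.37 for EDS5 and 0.70 to 1.31 for the other members, beside a median of 0.36 over all probe sets.

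Over the 12 group means, 8 other genes followed the mean profile of the members most closely among 12659 candidates whose highest group mean reached the median signal. These were RHF1A (r = 0.974), EARLI1 (0.965), AT2G26440 (0.964), TSA1 (0.961), AT5G41950 (0.953), AIP2 (0.952), PRP3 (0.951) and SUF4 (0.948). The correlation is a description over 12 groups that fall into an early and a late series, between which the control signals also differed. Among members, correlation with the mean of the others was 0.91 to 0.98 for 8 genes, and 0.62 for NIMIN1 and 0.59 for ICS1. EARLI1, which encodes a secreted proline-rich protein, read 10.35 at 0 h with lincomycin in replicates 1 to 4, 7.89 in replicates 5 to 8, and 8.07 and 6.60 without lincomycin.

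Other genes of the pathway were taken from 6 lists of 57 genes, of which 54 had a probe set. These were tested in a single limma fit, and a gene was called at a Benjamini-Hochberg adjusted p under 0.05 over all 22746 probe sets. The lists were chosen with earlier results of these data known, so their shares are a description and nothing is read from an excess. In the early series lincomycin and the difference in Dap cannot be told apart. With lincomycin at 0 h in replicates 1 to 4, 19 of 54 were higher and 2 lower, 38.9% called against 23.4% of all probe sets. At 0.5 h 21 were higher and 4 lower (46.3% against 21.9%), and at 1 h 19 and 3 (40.7% against 16%). Without replicate 1 of the 1 h group with lincomycin, 14 were called in place of 22, beside 2594 in place of 3649 of all 22746 probe sets. At 0 h in replicates 5 to 8, 6 were higher and 5 lower, 20.4% against 22.1%. Leaving out the array that stood apart, which is of another group but enters the shared spread, gave 17 called. At 4 h 8 were higher and 1 lower (16.7% against 13.9%). At 24 h 12 were higher and 7 lower (35.2% against 33.1%), or 11 and 5 without the array that stood apart. When the 0 h difference of replicates 5 to 8 took the place of that of replicates 1 to 4, 4 were called at 0.5 h and 2 at 1 h. That comparison combines more group means than the plain one, so its SE is larger and the numbers called are not like for like. These counts, and those without the array that stood apart, are given without the share of all probe sets and are not compared with it.

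By role, 3 of 5 genes of the EDS1 group were higher at 0 h in replicates 1 to 4. Of all probe sets 23.4% were called there in either direction, 22.1% in replicates 5 to 8 and 33.1% at 24 h. The lists are short, so counts by list, here and below, are a description and are not compared with these shares. EDS1, a lipase-like protein central to basal defence, rose by 1.24 ± 0.17 (SE, adjusted p = 9.2e-07), and its partner SAG101 by 1.12 ± 0.21 (adjusted p = 0.00014). Both were also called in replicates 5 to 8, at 0.59 ± 0.17 (adjusted p = 0.01) and 1.13 ± 0.21 (adjusted p = 9e-05). PAD4 was at 0.02 ± 0.38 (adjusted p = 0.98).

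In the list of salicylate and pipecolate synthesis, 5 of 13 genes were higher at 0 h in replicates 1 to 4. PBS3, which joins glutamate to isochorismate on the way to salicylate, was higher by 2.67 ± 0.64 (SE, adjusted p = 0.0019), and FMO1, which makes N-hydroxypipecolate, by 2.24 ± 0.55 (adjusted p = 0.0026). Without lincomycin in that set PBS3 was dim on 4 of 4 arrays and FMO1 on 3 of 4, so both sizes rest on dim signals. Only ICS2, the second isochorismate synthase, was called in replicates 5 to 8, at 0.93 ± 0.25 (adjusted p = 0.0053). At 24 h 5 were lower and 2 higher. PBS3 stood at -3.64 ± 0.64 (adjusted p = 2.2e-05) and FMO1 at -3.31 ± 0.55 (adjusted p = 1e-05), in the same direction as ICS1. Without the array that stood apart these were -3.15 ± 0.67 (adjusted p = 0.00026) and -2.80 ± 0.56 (adjusted p = 0.00013), and 3 genes were lower, since ICS2 and ALD1 were no longer called. PBS3 and FMO1 were dim on all 4 arrays at 24 h with lincomycin, so the sizes of their 24 h differences rest on dim signals.

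WRKY factors were called for 4 of 6 genes at 0 h in replicates 1 to 4, all higher. WRKY46 stood 1.71 ± 0.41 higher (SE, adjusted p = 0.0019) and WRKY70 1.33 ± 0.25 higher (adjusted p = 9.6e-05). By limma none of the 6 was called in replicates 5 to 8, where 2 had an unadjusted p under 0.05. Of the perception list, TGA7 was the only gene of 11 called in replicates 1 to 4, at 0.77 ± 0.15 (adjusted p = 0.00023), and NPR1, a salicylate receptor, was at 0.14 ± 0.16 (adjusted p = 0.58).

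Among 7 genes that remove or convert salicylate, 2 were higher and 1 lower at 0 h in replicates 1 to 4. DLO1, a salicylate hydroxylase, was 2.78 ± 0.41 higher (SE, adjusted p = 2.2e-06), whereas UGT74F2, which glucosylates salicylate, was lower, at -1.68 ± 0.32 (adjusted p = 0.00014). UGT74F2 was lower in replicates 5 to 8 too, at -1.74 ± 0.32 (adjusted p = 6.6e-05), and DLO1 was not called. Of 12 other salicylate-responsive genes, 4 were higher and 1 lower in replicates 1 to 4, led by WAK2, a kinase of the WAK1 family, at 2.29 ± 0.44 (adjusted p = 0.00016). Without lincomycin in that set WAK2 was dim on 4 of 4 arrays and DLO1 on 3 of 4, so both sizes rest on dim signals.

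**Figure D4:**
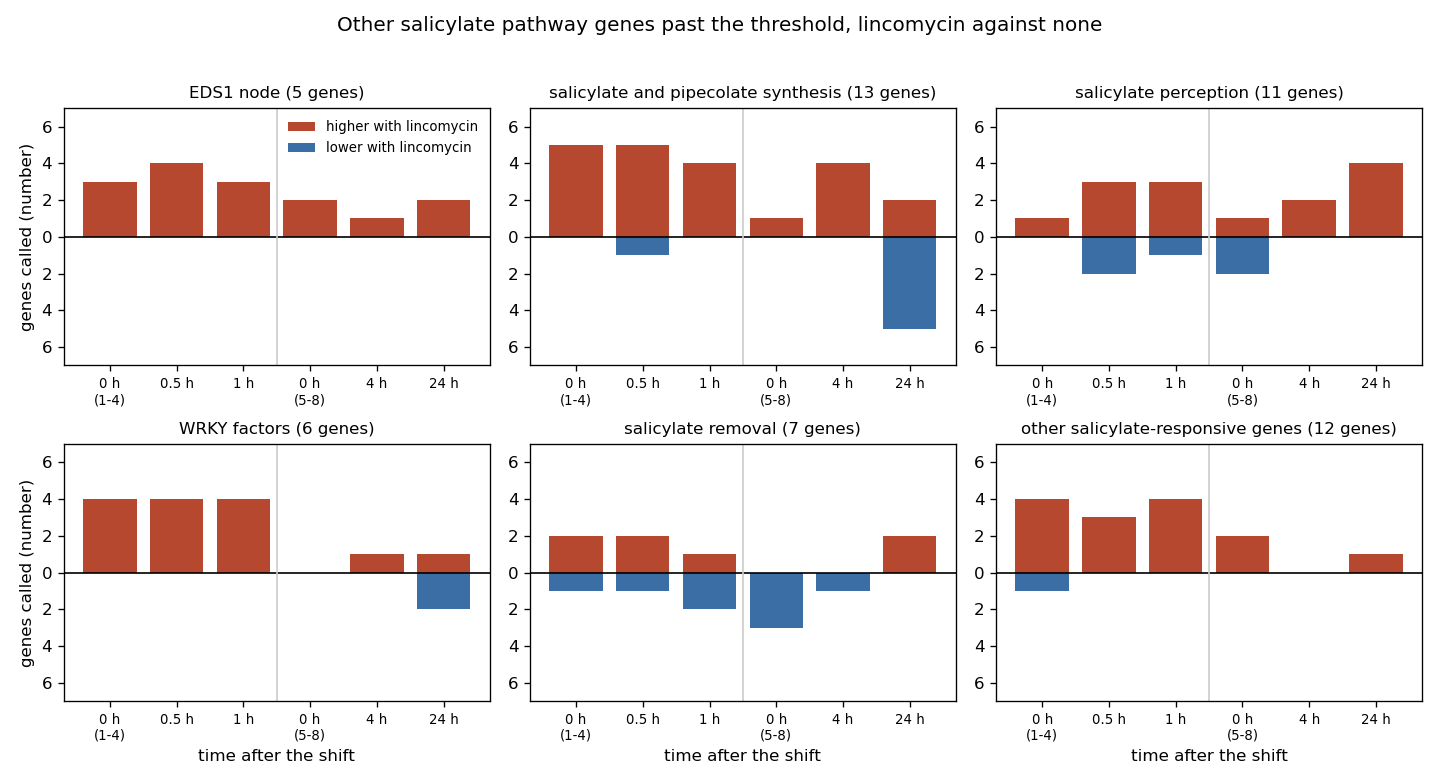
Bars count genes of each list called higher (up) or lower (down) with lincomycin at each time on the x axis; numbers in titles are measured genes. Synthesis genes are higher in 5 of 13 at 0 h in replicates 1 to 4 and lower in 5 of 13 at 24 h, or 3 without the array that stood apart.

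The difference between the 2 sets of 0 h arrays was compared between treatments for the 54 pathway genes, a comparison added after the data were seen. It was called for 5 of 54 (9.26%), against 5.1% of all probe sets. PBS3 (3.03 ± 0.90, adjusted p = 0.042), DLO1 (2.36 ± 0.58, adjusted p = 0.011) and WRKY70 (1.26 ± 0.35, adjusted p = 0.027) had a higher lincomycin difference in replicates 1 to 4. MES9, an esterase that frees salicylate from its methyl ester, changed sign, from 0.39 in replicates 1 to 4 to -0.77 in replicates 5 to 8 (a difference of 1.16 ± 0.18, adjusted p = 9.9e-05). ICS2 went the other way, from -0.62, which was not called, to 0.93 (-1.54 ± 0.35, adjusted p = 0.0067). The count was 3 without replicate 2 or 6 without lincomycin, or without replicate 4, 5 or 7 with it. Without lincomycin, 1 gene was higher and 11 lower in replicates 1 to 4 (22.2% against 24.4%), a share near that of all probe sets. With lincomycin 5 were higher and 5 lower (18.5% against 19.5%).

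Light called few pathway genes early. Without lincomycin limma called 0 of 54 at 0.5 h, against 0.853% of all probe sets, and 2 had an unadjusted p under 0.05. At 1 h 4 were called (7.41% against 5.68%), and 1 or 2 without replicate 1, 3 or 4 of either group. With lincomycin limma called 0 of 54 at 0.5 h (0.347%), where 3 had an unadjusted p under 0.05, and 1 at 1 h (1.85% against 1.5%). That gene was not called without replicate 1 or 3 at 0 h, or without any of the 3 arrays at 1 h. At 4 h without lincomycin 7 were higher and 13 lower (37% against 33.5%), and with it 4 and 1 (9.26% against 13.5%). At 24 h without lincomycin 7 were higher and 20 lower, 50% against 42.2%, or 3 and 18 without the array that stood apart. The latter counts are given without the share of all probe sets. With lincomycin 3 were higher and 15 lower at 24 h (33.3% against 22.3%). FMO1 fell by 4.18 ± 0.55 (SE, adjusted p = 2e-07) and ALD1, an aminotransferase of the pipecolate route, by 3.05 ± 0.39 (adjusted p = 8.2e-08) in that comparison. At 24 h with lincomycin FMO1 was dim on 4 of 4 arrays and ALD1 on 3 of 4, so these sizes rest on dim signals.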

How the data were processed

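RNA of 47 pooled seedling samples was measured on Affymetrix ATH1 arrays. The authors deposited signal intensity values on a linear scale, 1 per array for every probe set. MAS5 and GCRMA are named, per the submitters' processing notes, and which table each made is not given in the sources used here. From the values, the arrays had been scaled to a common trimmed mean. The authors' deposited table of comparisons holds, per the file headers, log ratios, read here as log2, and a p-value beside each.

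Of 22810 probe sets, 64 controls were left out and 22746 tested. Signals were taken as log2(signal + 1) with a pseudocount of 1. One fit of 12 groups was made with limma 3.58.1 in R 4.3.3, and figures with Python 3.11.15, pandas 2.3.3 and matplotlib 3.10.9. Calls are Benjamini-Hochberg adjusted p under 0.05. The series' design text gives 4 replicates, each grown apart; whether this covers all 8 samples per treatment at 0 h is not given in the sources used here. The number of arrays limits the precision, and depth does not apply. The fit was tested on simulated data. Names came from the TAIR10.1 annotation. The members and gene lists were chosen with earlier results of these data known. The genes named are the members, the 8 most alike in profile, and in each list the called genes with the largest differences and 1 not called. The quartile floor and the comparison of the 2 sets of 0 h arrays were chosen after seeing the data.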

Additional observations from a re-analysis of the deposited data

Results flagged for a closer look

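In 9 of 110 groups of 4 arrays, 1 array of a member lay far from the others (Dixon's criterion, which chance meets in about 1 in 20 groups). They were PR1 at 4 h with lincomycin, replicate 2, at 7.17 against 5.89 to 5.92, and SAG13 at 24 h with lincomycin, replicate 2, at 1.77 against 5.66 to 6.28. WAK1 at 24 h with lincomycin, replicate 1, read 3.97 against 5.07 to 5.20. PNP-A read 4.08 at 1 h without lincomycin in replicate 3, against 5.77 to 5.86, and 4.15 at 0 h with lincomycin in replicate 5, against 6.72 to 6.86. NIMIN1 at 4 h without lincomycin, replicate 3, read 5.92 against 2.35 to 2.87, and ICS1 at 4 h without lincomycin, replicate 1, read 8.18 against 7.83 to 7.85. EDS5 read 8.86 at 24 h without lincomycin in replicate 4, against 7.12 to 7.33, and 7.82 at 0 h with lincomycin in replicate 4, against 8.33 to 8.37.

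The light response of ICS1 at 24 h went up without lincomycin and down with it, a difference of -2.44; ICS1 was chosen on such values, and the difference was not tested.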

How the results depend on the processing

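Numbers of pathway genes called, of 54, changed by more than 1.5 times under some settings. With array weights they were 23 in place of 12 for the 0 h sets without lincomycin, 8 in place of 4 for light at 1 h without it, 13 in place of 5 for light at 4 h with it, and 18 in place of 11 and 14 in place of 9 for lincomycin at 0 h (replicates 5 to 8) and 4 h. With the mean of both 0 h sets, light called 5 and 3 in place of 0 at 0.5 h without and with lincomycin, 11 in place of 4 and 2 in place of 1 at 1 h, and 15 in place of 5 at 4 h with it, and lincomycin at 0 h called 23 in place of 11. Quantile normalization gave 3 in place of 5 for the difference between 0 h sets and 7 in place of 11 for lincomycin at 0 h in replicates 5 to 8, where leaving out the array that stood apart gave 17. With the late 0 h difference in place of the early one, chosen after seeing the data, lincomycin called 4 in place of 25 at 0.5 h and 2 in place of 22 at 1 h. That comparison combines more group means than the plain one, so its SE is larger. The causes of these changes in number were not tested.

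Leaving out single arrays gave 14 to 20 for lincomycin at 1 h, 9 to 11 at 0 h in replicates 5 to 8, 1 to 4 and 0 to 1 for light at 1 h without and with lincomycin, and 3 to 6 for the difference between 0 h sets. The authors' deposited log ratios had the other sign for NIMIN1 at 0 h and 4 h (-0.02 and -0.02, lincomycin), for PR5, WAK1 (light at 4 h without lincomycin, -0.04 and -0.03) and SAG13 (light at 24 h without lincomycin, -0.21).

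Replicate numbers were shared by the treatments. Of 23 same-numbered pairs, 2 had deviations correlated above 0.1 (range -0.129 to 0.113), and 7 of 23 arrays correlated best with their own number. Both pairs above 0.1 were in 0 h replicates 1 to 4 (0.104 and 0.113). Weak correlations cannot tell whether samples of 1 number were paired. With the replicate number as a block the lincomycin counts were 19 at 0 h in replicates 1 to 4, 24 at 0.5 h, 21 at 1 h, 11 at 0 h in replicates 5 to 8, 8 at 4 h and 18 at 24 h, none beyond 1.5 times. Late light responses and 0 h sets within a treatment share no number and could not be fitted with it. Single member differences moved by more than 1 SD in 10 cases with a pseudocount of 16, 2 with array weights, 48 with the mean of both 0 h sets, 12 with the late 0 h difference and 23 when taken from the authors' deposited table.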

Other observations

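Of 7 measured genes for chaperones of the endoplasmic reticulum, 6 were higher with lincomycin in replicates 1 to 4 and 6 in replicates 5 to 8 (limma, against 23.4% and 22.1% of all probe sets called in either direction). SHD, which folds membrane receptors, was at 0.91 ± 0.12 (SE, adjusted p = 6.3e-07) and then 0.65 ± 0.12 (adjusted p = 9.3e-05). At 4 h 2 of the 7 were higher and 1, CNX1, was lower (-0.54 ± 0.15, adjusted p = 0.013). At 24 h SDF2 alone was called (0.28 ± 0.11, adjusted p = 0.04), and none without the array that stood apart, where SDF2 had an adjusted p of 0.097. FLS2, the flagellin receptor, was called in both sets as well, at 1.21 ± 0.26 (adjusted p = 0.00049) and 1.15 ± 0.26 (adjusted p = 0.00075). It is 1 gene of a list for pattern-triggered immunity that did not move as a whole. In each set some genes of that list had higher and others lower means with lincomycin, so FLS2 does not stand for the list. Of 9 measured senescence genes, 4 were lower in replicates 1 to 4 and 6 in replicates 5 to 8, led by NAP (-1.97 ± 0.37, adjusted p = 0.00012) in the former.

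Among 14 genes of jasmonate and ethylene defence, 3 were higher in replicates 1 to 4, and 2 were higher and 1 lower in replicates 5 to 8, which is 21.4% in each set against 23.4% and 22.1% of all probe sets. LOX2, a lipoxygenase of jasmonate synthesis, was at 2.72 ± 0.38 (adjusted p = 5.8e-07) in replicates 5 to 8 and at 0.04 ± 0.38 in replicates 1 to 4, which differed by -2.68 ± 0.53 (adjusted p = 0.0017). At 24 h LOX2 was at -3.77 ± 0.38 (adjusted p = 3.4e-10), or -3.87 ± 0.41 (adjusted p = 1.1e-09) without the array that stood apart.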
